A study of Mus musculus with 10 samples.

Results

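Heat shock proteins and chaperones were measured by 117 probes for 86 genes among the 25697 probes of an Illumina mouse bead array. The members were taken by gene symbol in the platform annotation: symbols that begin with Hsp and a letter or digit, Dnaj, Cct with a digit, Bag with a digit, Hyou1, Calr, Canx or Ahsa, together with Tcp1. Hspg2 and Hspbap1 were left out, and so were 7 probes for 5 Tcp10 and Tcp11 genes, whose symbols share the first letters of Tcp1 but are not chaperonin subunits. The arrays were hybridised with biotin-labelled cRNA amplified from total RNA of KH2 mouse embryonic stem (ES) cells. This line was built so that a doxycycline-inducible transgene can be placed at a fixed locus, here one for Sox17 with a V5 tag. Sox17 is a transcription factor of endoderm. The 5 arrays labelled uninduced carry the titles Sox17(-) 1 to 5 and are marked as controls, and the 5 arrays labelled induced carry Sox17(+) 1 to 5 and stand for 48 h of induction. Per the design text both groups carry the transgene, and the treatment field names doxycycline for the controls too. The labels do not say whether the arrays stand for separate cultures or clones, so the p-values measure the spread between these arrays only, which may be technical.

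Chaperones bind unfolded stretches of other proteins and keep them from clumping until they fold. In the cytosol, J-domain proteins (the DNAJ families) hand clients to HSP70, nucleotide exchange factors such as the BAG proteins and HSP110 release them, and HSP90 finishes many signalling proteins, while the ring-shaped CCT complex folds actin and tubulin. Heat and other protein damage switch on many of these genes through HSF1, and misfolding in the endoplasmic reticulum (ER) switches on others through the unfolded protein response. Pluripotent cells are known for high levels of several chaperones.

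All levels below are the authors' normalized intensities, on a linear scale, and differences are in log2(intensity + 16), which understates the change of dim probes. A probe was taken as above background at 10.6 intensity units and was tested if it passed on 5 of the 10 arrays. That left 88 member probes for 70 genes of the 14985 probes tested, and 81 members passed on all 10 arrays. Another 19 members stayed under the limit on every array, the only Canx probe among them, and 16 genes had no tested probe. The label comparison was induced minus uninduced. Replicate numbers in the descriptions start again at 1 for titles 4 and 5 within each label, so each label holds 2 runs of numbers, and the run comparison was titles 4 and 5 minus titles 1 to 3.

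The arrays did not follow the 2 labels. Rank correlations over 1357 probes for chemosensory receptors lay between 0.820 and 0.845 among induced 2 to 5, but between 0.416 and 0.517 when these arrays were set against the other 6. The other 6 correlated with each other at 0.433 to 0.527, a range that overlaps the one across sets, so the first set is named only as the arrays outside the second. This second set of 4 arrays was kept apart in the run comparison. Sox17 itself went against the labels: its probe ILMN_2747986 read 32.6, 32.1, 30.5, 60.6 and 65.3 on the uninduced arrays and 67.3, 13.6, 12.0, 16.6 and 15.0 on the induced arrays. It was highest on uninduced 4 and 5 and on the array labelled induced 1, and lowest on induced 2 to 5. Induced 1 is alone in its set and label and does not enter the run difference. The run comparison also moved with markers of another cell type. Of 13 tested extraembryonic endoderm markers, 8 were higher in the second run and 0 lower, led by Col4a1 at 2.60 ± 0.13 (limma adjusted p = 1.13e-06), and none of the 13 was under the background limit on all arrays. Their summed intensity was 7518 to 7654 on uninduced 1 to 3, 17030 to 18366 on uninduced 4 and 5 with induced 1, 6990 to 7348 on induced 2 and 3 and 11344 to 11459 on induced 4 and 5. The part of these cells or programmes in the chaperone differences was not tested, and in bulk RNA fewer cells of a type and less RNA per cell cannot be told apart.

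Most chaperones differed little between the runs, and those that did were the J-proteins Dnajc6 and Dnajb4 and the HSP90 activator Ahsa1 on the higher side, and Hspa2, Hspa1a, Dnaja1, Dnaja2 and the ER lectin Calr3 on the lower side. Of the 88 tested members, 12 passed the test, which is 13.6%, against 14.0% of all tested probes (limma, adjusted p under 0.05). The 12 probes stand for 8 genes. Dnajc6 (2 probes), Ahsa1 and Dnajb4 were higher in the second run, against a background of 6.71% of all probes, and Hspa2 (2 probes), Hspa1a, Calr3 (3 probes), Dnaja1 and Dnaja2 were lower, against 7.25%. The median difference was -0.03 over the members and -0.0035 over all tested probes, the median absolute difference 0.0964 and 0.118. No member reached a 2-fold difference, and 0.921% of all tested probes did. The share called is near the background and is no result about chaperones as a group.

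The label comparison called 18 of the 88 members, or 20.5%, against 19.5% of all tested probes. Of these, 9 genes were higher on the induced arrays (background 9.06%) and 9 lower (background 10.4%), with 1 probe for each gene. The median difference was 0.04 over the members and 0.0057 over all tested probes. A 2-fold difference was reached by 1 member, a Dnajc19 probe, and by 1.38% of all tested probes. Induced 1 lay within the range of the 5 uninduced arrays for 12 of the 18 called probes, against 62.0% of all label-called probes, and within the range of induced 2 to 5 for 2 of them, against 11.6%. For 16 of the 18, all but Dnajb12 and Dnajc3, the 6 arrays of the first set and the 4 of the second did not overlap (85.7% of all label-called probes), while the 2 labels did not overlap for 6 (29.8%). The members thus followed the array as a whole in this. Over all members, the 2 sets did not overlap for 30 of 88, 20 higher and 10 lower in the second set, or 34.1% against 34.9% of all tested probes, 17.6% higher and 17.3% lower. With the set of arrays as a block 0 of the 18 passed, a fit in which the label difference rests on induced 1 alone; 4 of 88 members (4.55%) and 4.83% of all probes then had an unadjusted p under 0.05. No member passed without uninduced 1, 2 or 3 or without induced 2, 4 or 5, where 0.0934% to 0.347% of all probes did. Leaving out induced 3 gave 4 members (4.26% of all probes), uninduced 4 gave 12 (12.4%), uninduced 5 gave 10 (13.0%) and induced 1 gave 41 (45.5%). Without Dnajc28 and Hspa1l, which passed the filter through arrays of the first set alone and so had to differ, 16 calls are left. The label calls below are therefore given as measured differences between arrays with these labels, which cannot be told apart from the 2 sets.

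**Figure D1:**
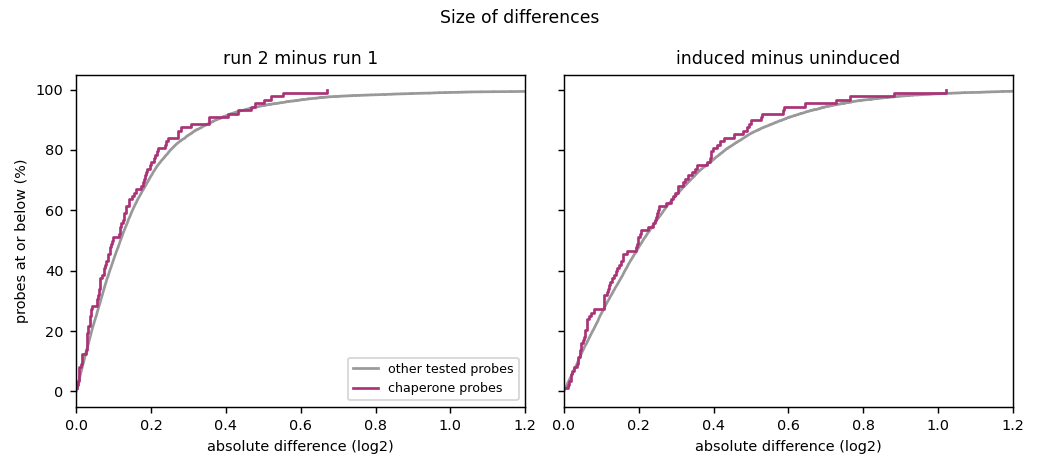
Share of probes (y axis, percent) whose absolute log2 difference is at or below the value on the x axis, for the run comparison (left) and the label comparison (right). In both panels the line of the 88 chaperone probes runs close to that of the other tested probes. Median absolute differences were 0.0964 and 0.198 for the chaperones, and 0.118 and 0.211 for all tested probes.

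**Figure D2:**
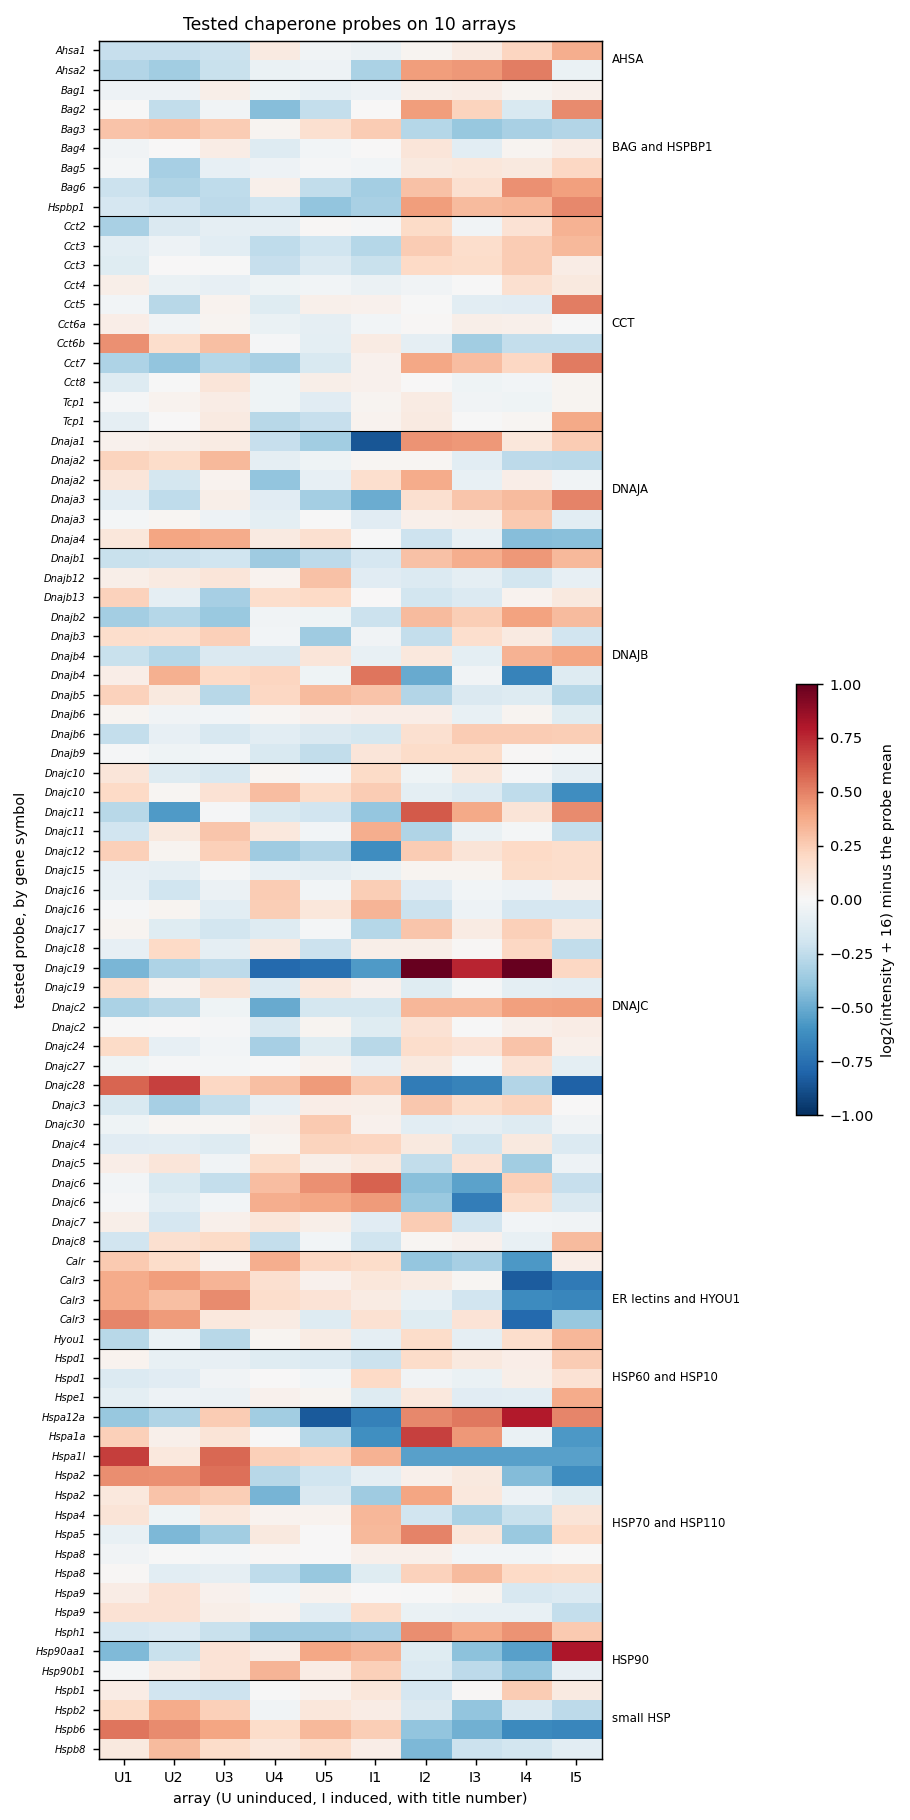
Each row is a tested chaperone probe, ordered by family and gene, and each column an array; colour gives log2(intensity + 16) minus the mean of that probe over the 10 arrays, cut at 1 in either direction. Uninduced 1 to 3 resemble each other, induced 2 to 5 often stand apart from the other 6 arrays, and induced 1 looks like the uninduced arrays for most label-called probes.

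In the HSP70 family the probes called between runs were those of Hspa2 and Hspa1a. Hspa2, an HSP70 that is abundant in testis and needed for meiosis in male mice, read 506, 503, 539, 296 and 315 on uninduced 1 to 5 and 339.9, 377, 389, 264 and 231 on induced 1 to 5 for probe ILMN_1223285. Uninduced 4 and 5 and induced 1 lay below uninduced 1 to 3, and induced 4 and 5 lay below induced 2 and 3, with no overlap in either pair. The run difference was -0.67 ± 0.07 (limma adjusted p = 0.000127), with -0.73 among the uninduced arrays and -0.60 among induced 2 to 5, and it passed the test in all 20 alternatives tried. The other probe, ILMN_3140383, read 86.0, 99.3, 96.1, 52.7 and 69.8 on the uninduced arrays and 58.0, 108, 85.9, 75.3 and 71.0 on the induced arrays. It too was lower in the second run, at -0.43 ± 0.09 (limma adjusted p = 0.0118), again with no overlap in either pair.

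Hspa1a, the classic heat-inducible HSP70, was read near background. Its probe read 38.8, 32.1, 34.6, 30.4 and 22.1 on the uninduced arrays and 14.3, 58.6, 46.6, 28.2 and 15.2 on the induced arrays. It fell in the second run by 0.55 ± 0.15 (limma adjusted p = 0.0299), with -0.28 among the uninduced arrays and -0.88 among induced 2 to 5; no group of titles overlapped with the other of its set. Hspa1b is a near-identical copy, so the probe may read both genes. The call was lost without uninduced 1, uninduced 5, induced 2, induced 3 or induced 4, with differences from -0.88 to -0.28 over the alternatives.

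Hspa8, the constitutive HSP70 of the cytosol, was read near the top of the normalized scale, whose highest value was 24578 on every array. Probe ILMN_1260103 lay between 18947 and 20175 on all 10 arrays, with differences of 0.00 between runs and 0.02 between labels, neither past the test. Its second probe read 12728, 11768, 11859.9, 10611 and 9699 on the uninduced arrays and 11622, 14804, 15707, 14526 and 14378 on the induced arrays. That probe was higher on the induced arrays by 0.32 ± 0.10 (limma adjusted p = 0.0496), a call the first probe did not share. Hsph1, an HSP110 that acts as nucleotide exchange factor for HSP70, read 1984, 2014, 1894, 1726 and 1729.5 on the uninduced arrays and 1759, 3072, 2909, 3032 and 2659 on the induced arrays. Its 4 values in the second set all lay above the other 6, and induced 1 was 1759; the label difference was 0.49 ± 0.14 (limma adjusted p = 0.0376).

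Hspa1l, a testis HSP70, was read at the edge of detection. It read 21.5, 9.08, 18.7, 11.4 and 11.0 on the uninduced arrays and 13.7, -0.92, -3.70, -0.75 and -2.91 on the induced arrays, and was under the background limit on 4 of 5 induced and 1 of 5 uninduced arrays. It passed the filter only through first-set arrays, where it is high, so its label difference of -0.73 is a description although it is counted among the calls. Among the 12 tested HSP70 and HSP110 probes, 3 were lower and 0 higher between runs, and 2 were higher and 1 lower between labels. Of all tested probes 7.25% were lower and 6.71% higher between runs, and 9.06% higher and 10.4% lower between labels. With 12 probes, and 2 of the 3 lower ones from Hspa2, these counts are no result about the family. Others stayed near level: Hspa4, an HSP110-type exchange factor, differed by 0.08 between runs, and the 2 probes of Hspa9, the mitochondrial HSP70, by -0.12 and -0.12, none past the test.

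J-domain proteins choose the clients and sites of HSP70. Dnajc6, or auxilin, recruits HSP70 to strip clathrin from vesicles and is best known from neurons; it was the member with the largest rise between runs. Its probe ILMN_1230224 read 729, 665, 628, 923 and 1024 on uninduced 1 to 5 and 1122, 552, 507, 876 and 631 on induced 1 to 5. The values on uninduced 4 and 5 and induced 1 were all above those on uninduced 1 to 3, and those on induced 4 and 5 above those on induced 2 and 3. The run difference was 0.50 ± 0.10 (limma adjusted p = 0.00686). The second probe, ILMN_2733605, read 591, 555, 587, 774 and 785 on the uninduced arrays and 805, 458, 364, 676 and 538 on the induced arrays, with a run difference of 0.48 ± 0.09 (limma adjusted p = 0.00577). Within the strata the 2 probes gave 0.52 among the uninduced arrays and 0.48 among induced 2 to 5, and 0.42 among the uninduced arrays and 0.55 among induced 2 to 5. Both passed without any single array.

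Dnaja2, a cytosolic partner of HSP70, read 909, 885, 977, 727 and 753 on the uninduced arrays and 789, 786, 721, 645 and 641 on the induced arrays. It was lower in the second run, at -0.27 ± 0.06 (limma adjusted p = 0.0182), a call that was lost without uninduced 4, uninduced 5 or induced 2. Its second tested probe gave -0.19 and did not pass. Dnaja1, another cytosolic J-protein, was near background: its probe read 13.8, 14.1, 14.6, 8.62 and 6.71 on the uninduced arrays and -0.72, 23.4, 23.0, 15.3 and 18.4 on the induced arrays, under the limit on 3 arrays. The run difference of -0.31 ± 0.06 (limma adjusted p = 0.00912) passed without any single array but was -0.09 with 64 added before the logarithm, where it no longer passed.

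Dnajb4, a cytosolic J-protein, read 21.2, 19.5, 23.1, 23.2 and 31.1 on the uninduced arrays and 25.3, 30.6, 24.6, 39.1 and 41.1 on the induced arrays. It was higher in the second run by 0.28 ± 0.08 (limma adjusted p = 0.0452), and the call was lost without any one of uninduced 1, 2 or 5 or induced 2, 3, 4 or 5. Its other tested probe pointed the other way, at -0.13 (adjusted p = 0.593). The ER J-protein Dnajb9, an unfolded protein response target, differed by -0.18 and did not pass. By family, 0 of 6 DNAJA probes were higher and 2 lower between runs. In the same comparison 1 of 11 DNAJB probes was higher, and 2 of 25 DNAJC probes, both of Dnajc6. Of all tested probes 6.71% were higher and 7.25% lower. With so few calls these counts are no result about the families.

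**Figure D3:**
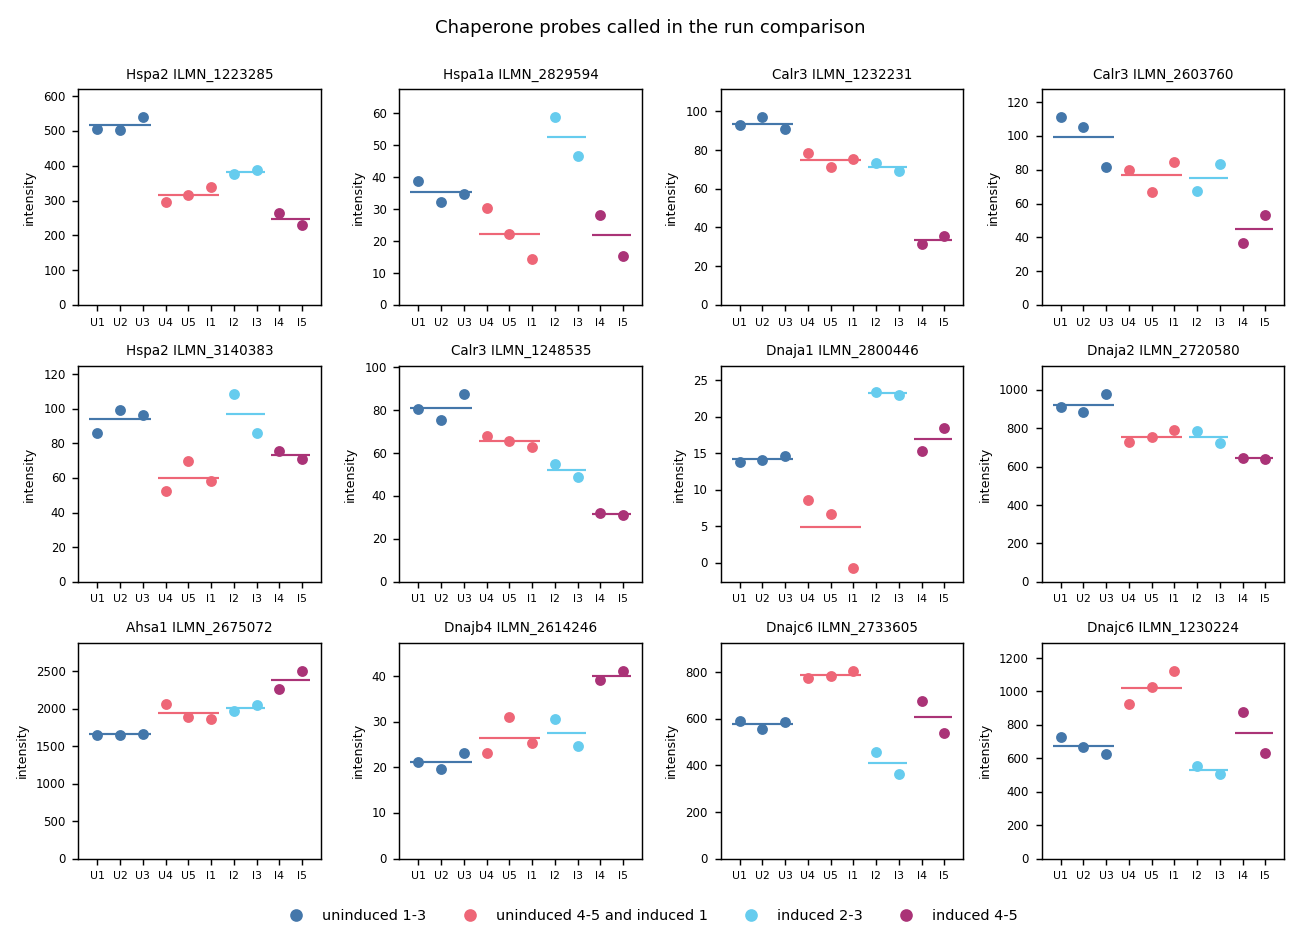
Normalized intensity (y axis, linear) of the 12 chaperone probes called in the run comparison on each of the 10 arrays (x axis; U uninduced, I induced), with a point for each array and a line at the mean of each group of titles. For 11 of the 12 the groups do not overlap within either set; the exception is the Calr3 probe ILMN_2603760, and the share among all run-called probes is 86.1%.

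Between labels, 5 J-proteins were higher and 3 lower, among 6 tested DNAJA, 11 DNAJB and 25 DNAJC probes. Of all tested probes 9.06% were higher and 10.4% lower, so the count is no result about J-proteins as a group. Dnajb1, the J-protein of the heat shock response, read 2113, 2123, 2137, 1922 and 2053 on the uninduced arrays and 2188, 3016, 3179, 3336 and 3091 on the induced arrays, and the label difference was 0.50 ± 0.11 (limma adjusted p = 0.0218). The 4 arrays of the second set were above the other 6. Dnajb2, a J-protein with ubiquitin-binding motifs that is abundant in neurons, read 97.3, 101, 95.0, 124 and 123 on the uninduced arrays and 108, 162, 154, 174 and 162 on the induced arrays, with a difference of 0.43 ± 0.13 (limma adjusted p = 0.0387). Dnajc2, which binds ribosomes and assists new chains, read 446, 461, 543, 390.3 and 495 on the uninduced arrays and 494, 708, 708, 751 and 755 on the induced arrays and differed by 0.53 ± 0.13 (limma adjusted p = 0.025), while its second probe gave 0.06 and did not pass.

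Dnajc19 is a J-protein of the mitochondrial import motor. Its called probe read 10.9, 13.8, 14.9, 5.54 and 6.07 on the uninduced arrays and 8.94, 61.8, 46.7, 61.7 and 26.8 on the induced arrays, under the background limit on 3 arrays, and differed by 1.02 ± 0.28 (limma adjusted p = 0.033). The other tested probe of the gene gave -0.12 (adjusted p = 0.279), so the 2-fold difference belongs to 1 dim probe. Dnajc3 holds back the kinase PERK in the ER; it is named because its promoter carries an ER stress element, after its values were seen. It read 239, 209.8, 224, 253 and 281 on the uninduced arrays and 280.2, 326, 307, 315 and 269 on the induced arrays and differed by 0.30 ± 0.09 (limma adjusted p = 0.047), with overlap between sets.

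On the lower side, Dnaja4, a cytosolic J-protein, read 50.0, 64.1, 62.8, 48.9 and 52.1 on the uninduced arrays and 44.7, 36.7, 41.8, 29.3 and 29.6 on the induced arrays, a difference of -0.45 ± 0.11 (limma adjusted p = 0.0239). Dnajb12, a J-protein of the ER membrane, read 314, 321, 329, 309 and 371 on the uninduced arrays and 276, 272, 281, 262 and 283 on the induced arrays and differed by -0.24 ± 0.08 (limma adjusted p = 0.0441). Dnajc28 read 25.9, 29.0, 16.4, 18.6 and 21.7 on the uninduced arrays and 17.6, 1.27, 1.66, 6.85 and 0.03 on the induced arrays, with 4 of its 5 induced values under the background limit, and its difference was -0.88. The induced value above the limit was that of induced 1, so this probe also passed the filter only through the first set and the difference is a description.

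Of 2 tested HSP90 probes 0 passed in either comparison, also at an unadjusted p under 0.05. Of 2 AHSA probes 1 was higher in the second run, where 6.71% of all tested probes were. Ahsa1, which speeds the ATPase of HSP90, read 1653, 1651, 1665, 2061 and 1893 on uninduced 1 to 5 and 1864, 1974, 2052, 2256 and 2500.0 on induced 1 to 5. Uninduced 4 and 5 and induced 1 lay above uninduced 1 to 3, and induced 4 and 5 above induced 2 and 3. The run difference was 0.25 ± 0.06 (limma adjusted p = 0.0264), with 0.25 among the uninduced arrays and 0.24 among induced 2 to 5. The call was lost without uninduced 1, 2, 3 or 4 or without induced 2 or 5, with differences from 0.22 to 0.27 over all alternatives. Its relative Ahsa2 gave 0.04 (adjusted p = 0.895). Hsp90aa1, the stress-inducible cytosolic HSP90, read 591, 692, 888, 854 and 1062 on the uninduced arrays and 1029, 740.2, 603, 549.9 and 1426 on the induced arrays. The spread within groups was wide, with induced 5 highest, and the run difference of 0.40 ± 0.23 (limma adjusted p = 0.3) did not pass. Without induced 4 it was 0.65 (adjusted p = 0.0436). A second Hsp90aa1 probe was above background on 1 array only, and Hsp90ab1 was not analysed here.

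No small heat shock protein passed in the run comparison, with 1 of 4 at an unadjusted p under 0.05. Between labels 3 of 4 were lower on the arrays labelled induced, where 10.4% of all tested probes were. With 4 probes this is no result about the family. Cryab, a small heat shock protein outside the symbol rule, was higher, at 0.62 ± 0.18 (limma adjusted p = 0.0402). Small heat shock proteins hold unfolded clients without using ATP. Hspb6, best known from muscle, read 622, 597, 563, 484 and 535 on uninduced 1 to 5 and 506, 319, 299.9, 268 and 265 on induced 1 to 5. Induced 2 to 5 were all below the other 6 arrays, and induced 1, at 506, was near uninduced 4 and 5. The label difference was -0.77 ± 0.16 (limma adjusted p = 0.0209). Its run difference of -0.21 (adjusted p = 0.0534) was just short of the threshold. Hspb8, the partner of Bag3 in clearing misfolded proteins, read 143, 168, 152, 144 and 152 on the uninduced arrays and 139, 92.5, 112, 114 and 122 on the induced arrays and differed by -0.35 ± 0.10 (limma adjusted p = 0.034). Hspb2 read 33.5, 40.2, 35.3, 26.4 and 30.9 on the uninduced arrays and 29.7, 23.2, 17.1, 23.3 and 20.1 on the induced arrays and differed by -0.35 ± 0.11 (limma adjusted p = 0.0416). Hspb1, the widely expressed HSP27 family member, gave 0.12 (adjusted p = 0.385) between labels and 0.18 (adjusted p = 0.185) between runs; it read 3072, 2565, 2529, 2918 and 2997 on the uninduced arrays and 3157, 2598, 2946, 3496 and 3116 on the induced arrays.

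Bag3 joins HSP70 to small heat shock proteins in selective autophagy. It read 1445, 1462, 1416, 1209.9 and 1329.6 on the uninduced arrays and 1417, 969.9, 910.1, 945 and 962 on the induced arrays. Induced 2 to 5 lay below all other arrays, and induced 1 sat among the uninduced arrays; the label difference was -0.41 ± 0.12 (limma adjusted p = 0.0398). Hspbp1, an exchange factor for HSP70, read 404, 394, 377, 395 and 344 on the uninduced arrays and 361, 614, 572, 579 and 641 on the induced arrays, the opposite pattern, with a difference of 0.49 ± 0.14 (limma adjusted p = 0.0359). Of the 7 tested BAG and HSPBP1 probes these were the 2 called between labels, where 19.5% of all tested probes were. Between runs 0 passed, 1 of them at an unadjusted p under 0.05, and the differences ran from -0.20 to 0.18.

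**Figure D4:**
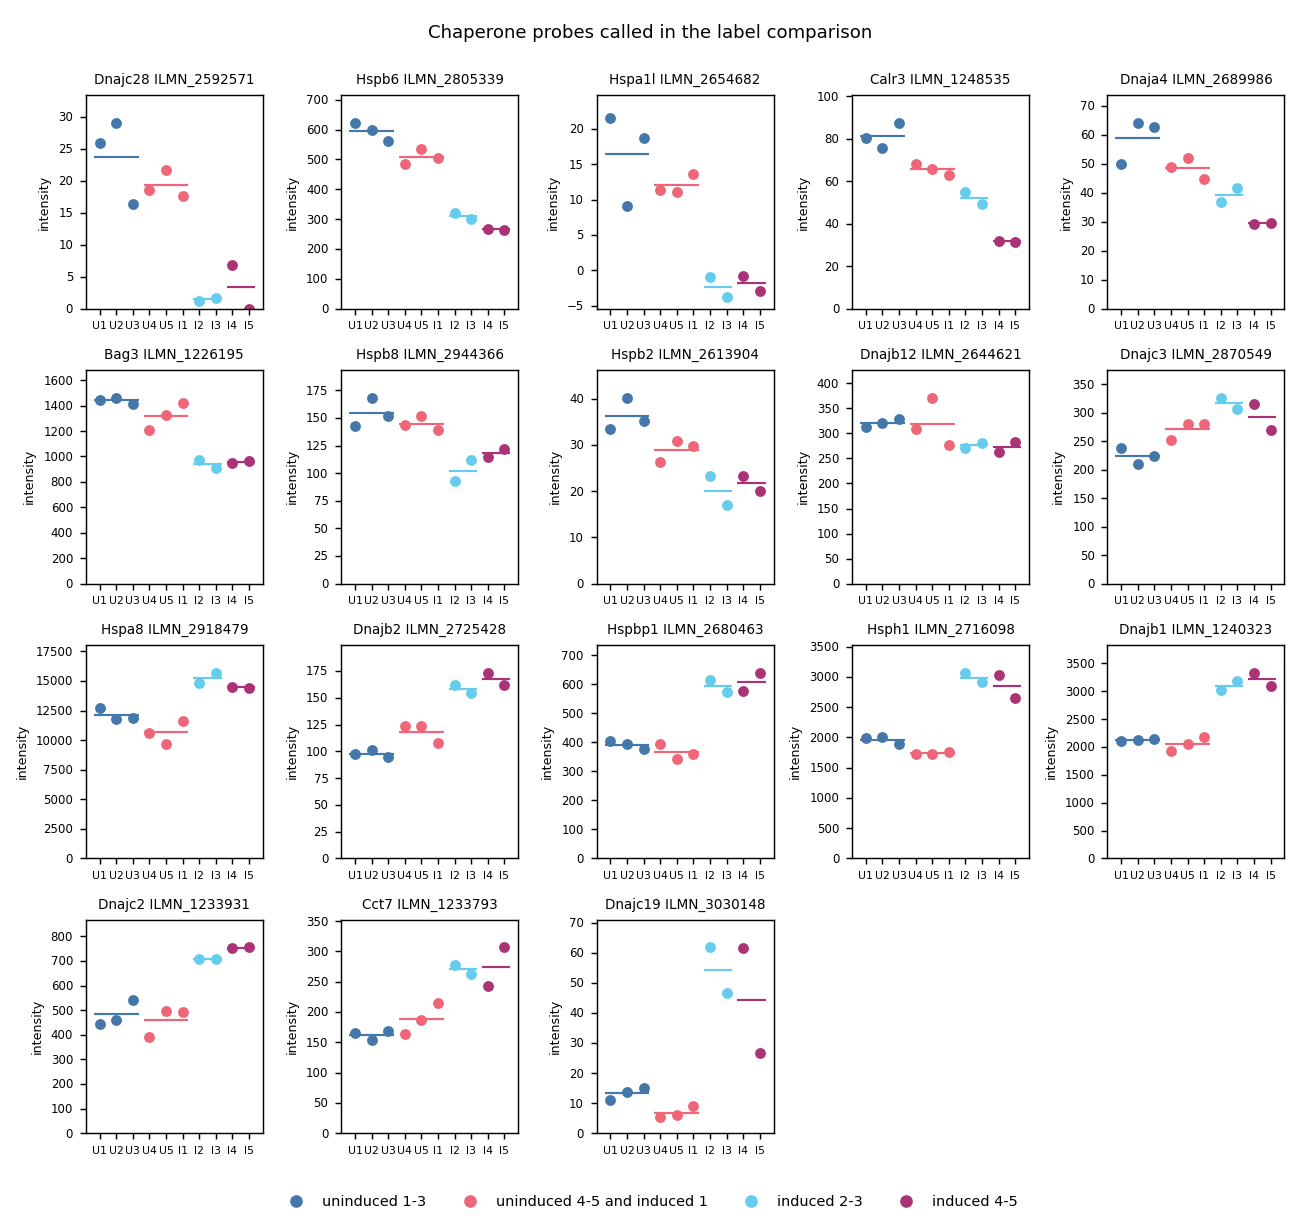
Normalized intensity (y axis, linear) of the 18 chaperone probes called in the label comparison on each of the 10 arrays (x axis; U uninduced, I induced), with a line at the mean of each group of titles. Induced 1 lies within the range of the uninduced arrays in 12 of the 18 panels.

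The chaperonins were nearly level between runs. Of 11 tested probes for the CCT complex, 0 passed in the run comparison, also at an unadjusted p under 0.05, and their differences lay between -0.21 for the testis subunit Cct6b and 0.16 for Cct2. Between labels 1 of 11 passed, where 19.5% of all tested probes did. Cct7 read 165, 154, 169, 163 and 186 on the uninduced arrays and 215, 278, 263, 243 and 306 on the induced arrays, with induced 2 to 5 above the other arrays, and differed by 0.59 ± 0.10 (limma adjusted p = 0.0188). The other 10 ranged from -0.33 to 0.29.

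Hspd1 and Hspe1, the HSP60 and HSP10 of the mitochondrial matrix, are read in opposite directions from 1 promoter. The heat shock element was searched as GAA, TTC and GAA with NN between them, on both strands, in the 250 bases before each start in the RefSeq promoter table (build GRCm38.p6). It occurred in 0.466% of 32851 promoters, and in 4 of the 95 member promoters, those of Hspd1, Hspe1 and Dnajb6 (2 starts). The 95 promoters cover 71 of the 86 member genes. Only this spelling was searched, so the absence of a match does not show that a gene lacks a heat shock element. The stretch between Hspd1 and Hspe1 is printed because 2 matches on opposite strands overlap there, in capitals.
Hspe1 (chr1:55088029-55088106, plus strand): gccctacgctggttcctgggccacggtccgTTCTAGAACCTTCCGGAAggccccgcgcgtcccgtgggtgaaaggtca

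Neither gene passed in either comparison, with 0 of 3 probes at an unadjusted p under 0.05 in each. Hspe1 read 4842, 5006, 4975, 5343 and 5276 on the uninduced arrays and 4742, 5563, 4773, 4815 and 6701 on the induced arrays, and its differences were 0.12 (adjusted p = 0.47) between runs and 0.05 (adjusted p = 0.737) between labels. For Hspd1, probe ILMN_2639036 read 4702, 4358, 4349, 4218 and 4175 on the uninduced arrays and 3963, 5215, 4911, 4804 and 5478 on the induced arrays, and probe ILMN_2713841 read 11301, 11499.9, 12129, 12479.7 and 12180.0 on the uninduced arrays and 14236, 12129, 11859.9, 12903 and 13746 on the induced arrays. Their run differences were -0.04 and 0.11. For ILMN_2713841 the second-run titles were above the first-run titles in both sets, by a margin that did not pass (adjusted p = 0.255), and for ILMN_2639036 induced 2 to 5 were above the other 6 arrays.

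The ER chaperones fold secreted and membrane proteins. The ER stress element was searched as CCAAT and CCACG with any 9 bases between them, again on both strands, and 6 of the 95 member promoters held it, against 0.113% of all promoters. These were Hspa5, Hsp90b1, Calr, Canx, Calr4 and Dnajc3, with 2 matches in Hsp90b1. The stretches of Hspa5, Hsp90b1, Calr and Dnajc3 are shown with each match in capitals, so that the shared element can be read beside the values of each gene. Dnajc3 was chosen after its values were seen. Canx and Calr4 had no tested probe, and their stretches are left out. A match describes letters, not binding.
Hspa5 (chr2:34771995-34772073, plus strand): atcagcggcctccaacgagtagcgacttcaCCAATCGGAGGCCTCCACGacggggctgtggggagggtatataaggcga
Hsp90b1 (chr10:86705503-86705686, minus strand): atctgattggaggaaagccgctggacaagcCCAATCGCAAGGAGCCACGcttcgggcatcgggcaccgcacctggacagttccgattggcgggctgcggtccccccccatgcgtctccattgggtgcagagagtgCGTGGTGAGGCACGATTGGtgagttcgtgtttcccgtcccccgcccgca
Calr (chr8:84847045-84847123, minus strand): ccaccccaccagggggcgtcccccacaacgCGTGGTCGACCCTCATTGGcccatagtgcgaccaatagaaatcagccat
Dnajc3 (chr14:118937797-118937875, plus strand): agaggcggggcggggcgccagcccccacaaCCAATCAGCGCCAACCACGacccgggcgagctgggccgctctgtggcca

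Hspa5, or BiP, the HSP70 of the ER, read 199, 149.7, 162, 226 and 210.2 on uninduced 1 to 5 and 267, 303, 228, 159 and 243 on induced 1 to 5. It was higher in the second run among the uninduced arrays, by 0.34, and lower among induced 2 to 5, at -0.39. The joint run difference was 0.01 (adjusted p = 0.984), and the difference between strata did not pass either (adjusted p = 0.365). Hsp90b1, the HSP90 of the ER, read 7847, 8429, 8756, 10052 and 8367 on the uninduced arrays and 9377, 7230.5, 6617, 6088 and 7521 on the induced arrays. It was 0.06 (adjusted p = 0.726) between runs and -0.25 (adjusted p = 0.14) between labels, and all 4 arrays of the second set were below the other 6. Hyou1, an HSP110 of the ER, read 174, 204, 174, 218 and 228 on the uninduced arrays and 200.0, 245, 200.2, 244 and 274 on the induced arrays, with 0.24 (adjusted p = 0.0874) between runs. Calr, which binds sugar chains on new proteins, read 2306, 2179, 1965, 2470.1 and 2223 on the uninduced arrays and 2190.4, 1467, 1520.4, 1284 and 2017 on the induced arrays, with 0.12 (adjusted p = 0.576) between runs and -0.42 (adjusted p = 0.0585) between labels.

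Calr3, the testis calreticulin needed for male fertility in mice, was the ER lectin called in the run comparison. Its 3 tested probes were all lower in the second run. Probe ILMN_1232231 read 93.1, 96.8, 90.7, 78.3 and 71.0 on uninduced 1 to 5 and 75.4, 73.2, 69.4, 31.4 and 35.9 on induced 1 to 5, a difference of -0.52 ± 0.11 (limma adjusted p = 0.00828). Probe ILMN_1248535 read 80.4, 75.6, 87.4, 68.1 and 65.8 on the uninduced arrays and 62.8, 54.7, 49.1, 32.0 and 31.2 on the induced arrays, and was -0.35 ± 0.08 (limma adjusted p = 0.0126) between runs and -0.59 ± 0.15 (limma adjusted p = 0.0265) between labels. Probe ILMN_2603760 read 111, 106, 81.4, 79.7 and 66.7 on the uninduced arrays and 84.4, 67.2, 83.5, 36.8 and 53.4 on the induced arrays, a run difference of -0.47 ± 0.12 (limma adjusted p = 0.0247) that was lost without uninduced 1, 2 or 5 or induced 3 or 4. The fall was larger among induced 2 to 5 than among the uninduced arrays for each probe, -0.82 against -0.27 for the first. That difference between strata did not pass for any of the 3 (adjusted p from 0.212 to 0.763). Calr3 was the only gene called in both comparisons. A further probe was above background on 4 arrays and was not tested.

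The run differences were set side by side in the 2 strata. Of the 88 members, 52 (59.09%) had the same sign among the uninduced arrays and among induced 2 to 5, against 62.68% of all tested probes. No member differed between strata by the test of that difference, with 7 at an unadjusted p under 0.05 (7.95%, against 11.8% of all tested probes), and 2 of all 14985 probes did, or 0.0133%. Reading by groups of titles set uninduced 4 and 5 with induced 1 against uninduced 1 to 3, and induced 4 and 5 against induced 2 and 3. Induced 1 is of the first run by its description, and its group was formed with results of these arrays known. The counts by titles and the place of induced 1 are thus a description. Of 88 members, 16 (18.2%) were without overlap in both pairs and in the same direction. In the groups named first, 6 were higher and 10 lower. For all probes the share was 17.2%, with 8.06% higher and 9.14% lower. The 5 members beyond the run-called ones were probes of Dnajb2, Hspd1, Hspa8, Hspa9 and Hspb6. Of the 12 run-called members, 12 had induced 1 nearer to the mean of uninduced 4 and 5 than to that of uninduced 1 to 3, where 82.9% of all run-called probes did.

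**Figure D5:**
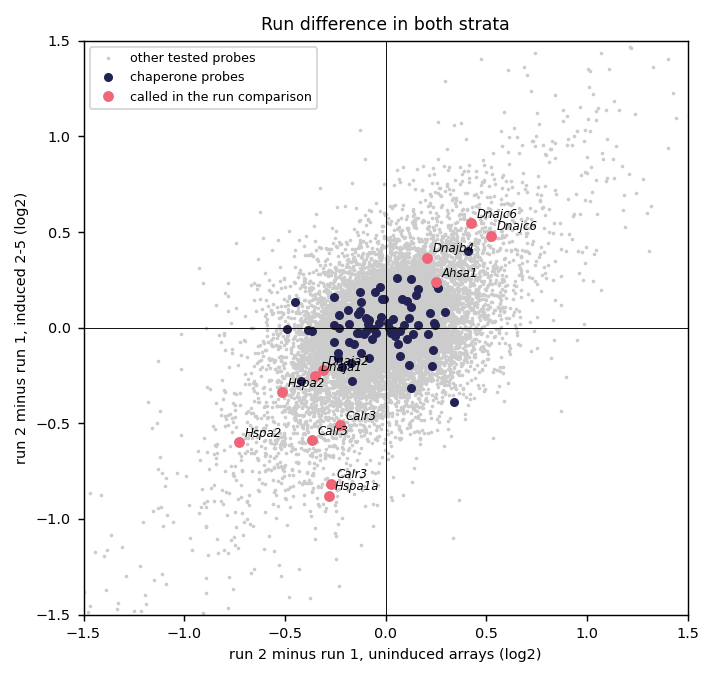
Run difference (second minus first run, log2) among the uninduced arrays on the x axis and among induced 2 to 5 on the y axis, with a point for each tested probe; chaperones are dark and the 12 run-called ones red. The red points lie in the lower left and upper right quadrants, with Hspa2 lowest on the x axis, and 70 other probes fall outside the axes at 1.5.

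Genes of the same pathways outside the symbol rule were read next, 1 probe a gene. Of 15 tested heat shock regulators and co-chaperones 0 passed between runs (2 at an unadjusted p under 0.05), and between labels Cryab, a small heat shock protein, was 0.62 ± 0.18 (limma adjusted p = 0.0402) and the collagen chaperone Serpinh1 was -0.62 ± 0.20 (limma adjusted p = 0.0494). Of 4 prefoldin subunits, which pass actin and tubulin to CCT, 0 passed between runs (1 unadjusted), and Pfdn1 was 0.42 ± 0.11 (limma adjusted p = 0.0283) between labels. Of 10 mitochondrial folding and protease genes 0 passed between runs (2 unadjusted), and between labels the mitochondrial HSP90 Trap1 was 0.26 ± 0.08 (limma adjusted p = 0.0463) and the protease subunit Spg7 -0.37 ± 0.12 (limma adjusted p = 0.0459).

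In the unfolded protein response and ER folding list, 21 genes were tested, with 1 higher and 1 lower between runs. Xbp1, a transcription factor of that response, read 1535, 1447, 1562, 2308 and 2534 on the uninduced arrays and 2500.0, 2362, 2338, 2984 and 3118 on the induced arrays, which is 0.54 ± 0.08 (limma adjusted p = 0.00122) between runs. Ddit3, or CHOP, was -0.30 ± 0.06 (limma adjusted p = 0.0127). Between labels 4 were higher, Xbp1, Syvn1, Derl2 and Sec61b, and 1 lower, the trimming enzyme Ganab at -0.60. Of 15 tested genes of the ATF4 stress list, 1 was higher between runs, Asns at 0.53, and 3 lower, Ddit4 furthest at -1.47 ± 0.09 (limma adjusted p = 3.66e-06). Between labels 0 of these were higher and 9 lower, where 9.06% of all tested probes were higher and 10.4% lower. Chac1 was furthest at -2.43 ± 0.50 (limma adjusted p = 0.0209), the lowest label difference of all tested probes. The list was chosen with earlier results of these data known, so its count is a description. The summed intensity of the list was 25387 to 27827 on the first set of arrays, induced 1 included, and 17421 to 19932 on the second.

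The remaining marker lists describe the cells. The 9 ES cell markers were all tested, 1 higher and 1 lower between runs and 1 higher and 2 lower between labels, and their summed intensity lay between 49574 and 55788 on all arrays. Of 5 tested fibroblast markers, 1 was lower between runs, Thy1, and 2 were higher and 2 lower between labels; Col1a1, Col1a2 and Col3a1 were untested, at or under 13.8 on every array. Of 5 tested trophoblast markers, 1 was higher and 3 lower between runs, with Krt18 at -0.93, and 0 passed between labels (0 unadjusted). Of 3 tested neural markers 1 was lower between runs, Nes, and 0 passed between labels (0 unadjusted). The endoderm list gave 0 calls between labels, with 4 of 13 at an unadjusted p under 0.05. Whether any of these programmes carries the chaperone differences was not tested.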

How the data were processed

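The deposited values used here are 1 intensity per probe on each of 10 arrays, on a linear scale. From the deposited intensities themselves, background was subtracted, since 25.5% lie below 0. The arrays share a 75th percentile of 250.0 and a highest value of 24578, with medians between 21.7 and 22.0. No source used here names the software behind these steps. RNA was amplified to biotin-labelled cRNA, per the labels' protocols. A second deposited table holds signals without normalization in 20 columns whose names occur in no label, and it was not used.

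Of the 25697 probes, 23978 carried 1 gene symbol in the platform annotation and 1719 none; all 117 member symbols matched through the Entrez identifier. Negative intensities were set to 0, 16 was added and log2 taken. The background limit of 10.6 is from the spread of values below 0 (SD 6.45). Differences were fitted with limma 3.58.1 in R 4.3.3 (lmFit, eBayes) over all 14985 tested probes, two-sided, with Benjamini-Hochberg adjustment over all of them and a threshold of 0.05. The label fit had no covariate. The run fit took label and array set as strata. The test was tried on simulated arrays with known changes. Of 2-fold changes, it recovered 94.4% in the label comparison and 96.7% in the run comparison. False calls were 6 of 181 and 11 of 188. The simulated noise was the spread left after strata and runs were fitted, which the label fit leaves in. The 94.4% is thus not the recovery of the label fit on the real arrays. The simulated arrays held no array sets, so the trial cannot show how the sets bear on the label calls. The number of arrays limits the precision.

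Named members were up to 4 run calls and up to 3 label calls per family by size of difference, the most intense tested member of a family without a call, and a fixed set of well-known chaperones. The members, the groups of titles, the 10 gene lists and the array sets were chosen with earlier results of these data known. Alternatives changed the value added before log2, the filter, the weights, the normalization, the strata and the arrays left in.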

Additional observations from a re-analysis of the deposited data

Results flagged for a closer look

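Within each label, the named members were checked for an array whose gap to the nearest other array was above 0.71 of the whole range of its 5 arrays. Of 78 groups checked, 6 were marked, and all 6 were the array labelled induced 1 among the induced arrays. Chance marks about 1 in 20 groups, but many named members were chosen by calls on these same arrays. That rate therefore does not apply here. The 6 are label-called probes for which the first and second sets of arrays did not overlap. Induced 1 is the only induced array of the first set, so it already lay outside the range of induced 2 to 5 for each. It was the highest of the 5 for Bag3, at 1417, Hspb6, at 506, and Hspa1l, at 13.7. It was the lowest of the 5 for Dnajb1, at 2188, Dnajc2, at 494, and Hspbp1, at 361.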

How the results depend on the processing

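The label comparison depended on many settings, and the share of all probes called moved alike. Its 18 called members became 11 with 1 added before log2 (11.2% of all probes), 2 of 117 with no filter on dim probes (2.14%), 43 with array weights (48.8%), 29 with the run as a covariate (26.6%), 0 with the array set as a block and 0 in the first run alone, where 20.5% of members and 19.9% of all probes had an unadjusted p under 0.05. In the first run alone 0 of all 14985 tested probes passed too. Leaving out each array in turn gave 0 to 41 members, and 0.0934% to 45.5% of all probes. With the array set as a block, Hspbp1 at -0.0794, Bag3 at 0.0491, Dnajc19 at -0.0577 and Hsph1 at -0.0845 changed sign, and none of these passed. The cause was not tested. The run comparison's 12 called members became 5 in the uninduced arrays alone (7.59% of all probes), 2 in induced 2 to 5 alone (3.83%) and 5 with the label alone as stratum (5.00%). Without each array in turn 8 to 12 members passed (10.5% to 14.0% of all probes). With the description number as a replicate block 2 passed (7.30% of all probes). With the title number as a replicate block 17 passed in the label comparison (22.3% of all probes), 14 of them among the 18. The calls of Dnajb12, Hspa8, Hspb8 and Dnajc3 were lost. Deviations of arrays with one title number correlated at 0.29 to 0.31 for numbers 2 to 5 and at -0.06 for number 1, and 2 of 10 arrays correlated best with their own number, so the numbers were not taken as pairs. Arrays with one description number correlated at -0.17 to 0.04. Other settings kept both counts within 1.5 times. The alternative with neqc was not run, since the columns of the table it needs could not be tied to samples. Values near the background limit of 10.6 (Dnaja1, Dnajc19, Dnajc28, Hspa1l) limit what those probes can show.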

Other observations

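Of the 29 members that were not tested, 19 were under the background limit on every array. Dnajb8, a J-protein abundant in testis, was above it on 4 arrays, induced 2 to 5, where it read 35.8, 24.1, 33.5 and 21.5, while induced 1 read 5.51 and the uninduced arrays between -6.39 and 5.96. The untested Calr3 probe had the opposite pattern, with 11.6, 12.2, 12.5 and 11.9 on uninduced 2 to 5, 10.6 on induced 1 and between -1.99 and 2.53 on induced 2 to 5. These are values without a test. Hspa4l was above the limit on induced 5 only, at 26.6.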
